A study of Mus musculus with 12 samples.

Results

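The 53 genes described here encode transcriptional corepressors and the subunits of silencing complexes, and they were taken by symbol from a table of 13304 genes measured by RNA-seq in mouse liver. All 53 were found there once. They were set in groups by the complex to which their proteins belong: 10 histone deacetylases (HDACs), 1 NCOR gene, 3 SIN3 genes, 8 genes of NuRD, 4 of CTBP and CoREST, 4 of H3K9 methylation, 4 of the Groucho family, 9 of polycomb and 10 other repressors and cofactors. The series compares Maf1-/- C57Bl/6J mice, which lack the repressor of RNA polymerase III in the whole body, with WT mice of the same strain, all on chow, 12 to 14 weeks old, starved overnight and given food again for 4 h until perfused liver was taken. Total RNA of 5 Maf1-/- and 7 WT livers was sequenced, 1 library for each mouse, with a stranded kit that depletes ribosomal and globin RNA. The sex of these mice is not given in the sources used here. Whether fewer cells of a type or less RNA per cell underlies a lower level cannot be told apart in whole liver.

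A corepressor does not bind DNA by a motif of its own in most cases. It is brought to a gene by a transcription factor or by a modified histone, and it carries or recruits enzymes that make chromatin less accessible. HDACs remove acetyl groups from histones and work as the catalytic part of NCOR, SIN3, NuRD and CoREST complexes, the EHMT and SETDB1 enzymes methylate lysine 9 of histone H3, and the polycomb complexes PRC1 and PRC2 ubiquitinate histone H2A and methylate lysine 27 of histone H3. In liver, NCOR1 with HDAC3 is known for repressing lipid synthesis genes at nuclear receptor sites.

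The libraries held 34709661 to 41931441 reads in the 13304 genes for Maf1-/- and 35003720 to 55787438 for WT liver. Maf1 itself had 5 to 52 reads in the Maf1-/- and 254 to 534 reads in the WT libraries, and its log2 fold change was -4.79 (limma, SE 0.44, adjusted p = 0.000601). Levels below are on a log2 scale of reads scaled by library size (CPM) and not divided by gene length. Each fold change sets Maf1-/- over WT in a limma fit of the whole table, over which p was adjusted. The library WT 2 stood apart. Its GC slope, the change in level for each 10 points of exon GC content, was -0.57 log2 units, while the remaining WT libraries had 0.14 to 0.35 and the 5 of Maf1-/- mice had -0.54 to 0.08. All 7 hepatocyte markers were measured, and their summed level was 97600 to 132000 CPM in Maf1-/- and 90700 to 120000 in WT liver. Of the 7, 4 had a fold change below 0 and 3 above, with a median of -0.02. Only Cps1 among them had an unadjusted p under 0.05, with a log2 fold change of 0.58 (unadjusted p = 0.0171, limma). Of 7 stellate cell markers 5 had a fold change above 0 and Dcn and Col3a1 had an unadjusted p under 0.05, with a summed level of 561 to 922 in Maf1-/- and 466 to 690 in WT liver, and of 5 erythroid markers measured all had a fold change below 0, with a summed level of 62.2 to 100 in Maf1-/- and 66.5 to 140 in WT liver. Of these 5, 4 are globin genes, whose RNA the kit depletes, with unadjusted p of 0.117 to 0.274 in limma. The fifth, Alas2, had the highest level, with means of 6.11 in Maf1-/- and 6.42 in WT liver on the log2 scale (unadjusted p = 0.0381, limma). The 3 B cell markers measured and 4 of 5 cholangiocyte markers were also below 0, with summed levels of 3.71 to 7.82 and 28.9 to 90.5 in Maf1-/- and of 5.21 to 8.07 and 40.2 to 94.4 in WT liver, and with Ms4a1 at -0.73 and Sox9 at -0.67 (unadjusted p of 0.0347 and 0.0282 in limma). The part of these cell types in the results was not tested.

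The exons of these genes differ in base composition, and the fold changes below run along it, so short coding stretches are shown first. Each has 90 bases from the middle of the longest coding sequence (GENCODE transcripts of build NCBIM37), with G and C in capitals.
Cic, coding bases 3721 to 3810: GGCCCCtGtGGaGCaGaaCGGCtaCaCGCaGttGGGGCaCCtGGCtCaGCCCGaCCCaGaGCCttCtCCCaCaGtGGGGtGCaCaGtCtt
Ctbp1, coding bases 619 to 708: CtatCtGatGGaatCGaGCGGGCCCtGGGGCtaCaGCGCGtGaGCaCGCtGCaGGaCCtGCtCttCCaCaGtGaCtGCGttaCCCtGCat
Rnf2, coding bases 460 to 549: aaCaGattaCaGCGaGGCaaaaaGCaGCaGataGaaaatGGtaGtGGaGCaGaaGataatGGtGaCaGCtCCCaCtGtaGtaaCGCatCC
Hdac2, coding bases 688 to 777: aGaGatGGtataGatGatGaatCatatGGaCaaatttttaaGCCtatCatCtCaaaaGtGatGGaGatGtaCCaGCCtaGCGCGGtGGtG
G and C make up 65.6% of the stretch from Cic, which encodes the capicua repressor, and 61.1% of that from Ctbp1, 2 genes with log2 fold changes of -1.02 and -0.80. They make up 45.6% of the stretch from Rnf2, which encodes the RING1B ubiquitin ligase of PRC1, and 41.1% of that from Hdac2, where the log2 fold changes were 0.34 and 0.33. Cic and Ctbp1 were shown as GC-rich genes with low fold changes and Rnf2 and Hdac2 as GC-poor genes with high ones, after their values were seen.

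Neither limma nor limma with voom precision weights gave any corepressor gene with an adjusted p under 0.01 and a log2 fold change past 0.5 in either direction, a threshold that 0.015% of all genes passed in limma without weights. The lowest adjusted p among the 53 was 0.192. At an unadjusted p under 0.05, 12 genes (22.6%) were lower in Maf1-/- liver, against 13.2% of all genes, and Hdac2 alone (1.89%) was higher, against 9.9% of all genes. The median exon GC content was 54.9% for the members and 49.5% for all genes with annotation. Shares over all genes, here and below, are not matched for GC content, so an excess over them cannot be read as particular to the members. Fold changes were below 0 for 34 and above 0 for 19 members, with a median of -0.17, against -0.02 for all genes. In no member did the Maf1-/- and WT values separate without overlap, as they did in 0.586% of all genes. The 12 lower members were Hdac5, Hdac10, Mta1, Ctbp1, Ehmt2, Aes, Cic, Bahd1, Daxx, Nab2, Irf2bp1 and Thap7. In each of the 12, WT 2 was the lowest WT library and lay below the median of the Maf1-/- libraries.

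**Figure D1:**
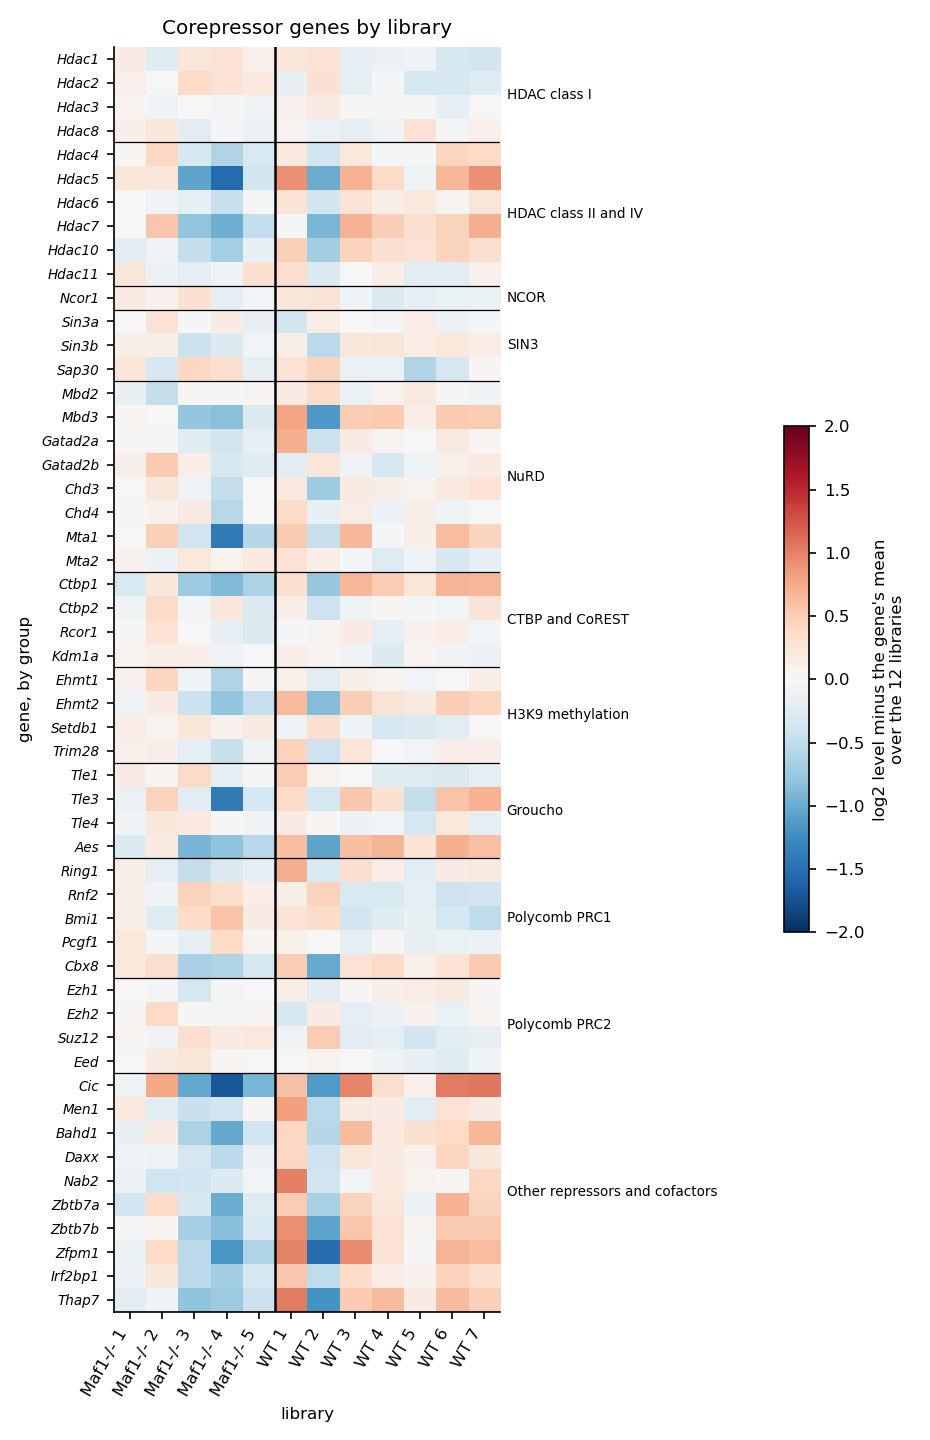
Level of each of the 53 genes (rows, by group) in 5 Maf1-/- and 7 WT libraries (columns), coloured by the log2 level minus the gene's mean over the 12 libraries. Maf1-/- 4 was the lowest Maf1-/- library for 27 genes and Maf1-/- 2 the highest for 29, while WT 2 was the lowest WT library for 31 genes and the highest for 14.

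Among class I HDACs, the mostly nuclear enzymes that serve as catalytic subunits of corepressor complexes, Hdac2 had 4.90, 4.81, 5.19, 5.09 and 5.01 in Maf1-/- libraries 1 to 5, against 4.49 to 5.11 (median 4.61) in the WT libraries. All 5 Maf1-/- values were above every WT value but that of WT 2. This gave a log2 fold change of 0.33 (SE of 0.12, unadjusted p = 0.0181, adjusted p = 0.192 in limma and exact permutation p = 0.0215). Hdac1, whose product pairs with HDAC2 in SIN3, NuRD and CoREST, had a log2 fold change of 0.19 (SE 0.14), Hdac3, the enzyme of NCOR complexes, of -0.03 (SE 0.08), and Hdac8, an enzyme that acts outside these complexes, one near 0 (SE 0.11). The median of the 4 genes was 0.09.

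Class II HDACs include the signal-regulated enzymes HDAC4, HDAC5 and HDAC7, which shuttle between nucleus and cytoplasm, the tubulin deacetylase HDAC6 and the polyamine deacetylase HDAC10, and HDAC11 is the class IV enzyme. Hdac5 had 3.93, 3.94, 2.63, 2.15 and 3.33 in Maf1-/- libraries 1 to 5, against 2.70 to 4.60 (median 4.35) in the WT libraries. Libraries 3 and 4 of Maf1-/- lay at or below the level of WT 2, while libraries 1 and 2 lay within the range of the other WT libraries. The result was a log2 fold change of -0.85 (SE of 0.39, unadjusted p = 0.047, adjusted p = 0.213 in limma and exact permutation p = 0.0758). Hdac10 had 2.80, 2.94, 2.53, 2.32 and 2.85 in Maf1-/- libraries 1 to 5, against 2.31 to 3.47 (median 3.33) in the WT libraries. Every Maf1-/- value was below the 6 WT values other than that of WT 2, with a log2 fold change of -0.54 (SE of 0.20, unadjusted p = 0.0176, adjusted p = 0.192 in limma and exact permutation p = 0.0341). Hdac4, Hdac6 and Hdac7 had log2 fold changes of -0.26, -0.27 and -0.59, with unadjusted p of 0.177, 0.0577 and 0.0848 in limma. Hdac11 had a log2 fold change of 0.04 (SE 0.14). The median of this class was -0.41, against 0.09 in class I and -0.15 over all 10 HDACs.

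NCOR1 is the scaffold that joins nuclear receptors to HDAC3. Ncor1 averaged 7.35 ± 0.20 in Maf1-/- (SD, n = 5) and 7.24 ± 0.21 in WT liver (SD, n = 7), a difference of 0.11 (SE 0.13), within the spread of each group. SIN3A and SIN3B are scaffolds for HDAC1 and HDAC2, and SAP30 is a bridging subunit. Sin3a, Sin3b and Sap30 had log2 fold changes of 0.08, -0.18 and 0.16, none with an unadjusted p under 0.05, and their median was 0.08.

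NuRD couples HDAC1 and HDAC2 to a nucleosome remodeler. Of its 8 genes here Mta1, which encodes a subunit that binds the deacetylase, had 3.44, 3.91, 3.05, 2.02 and 2.87 in Maf1-/- libraries 1 to 5, against 2.98 to 4.10 (median 3.88) in the WT libraries. The range of the Maf1-/- libraries was the wider one, and libraries 1, 2 and 3 lay inside the WT range. The result was a log2 fold change of -0.65 (SE of 0.29, unadjusted p = 0.0449, adjusted p = 0.212 in limma and exact permutation p = 0.0568). Mta2, which encodes the alternative subunit, had a log2 fold change of 0.15 (SE 0.12). Mbd3, which encodes the subunit that is exclusive with MBD2, had 3.84, 3.80, 3.01, 2.96 and 3.53 in Maf1-/- libraries 1 to 5, against 2.65 to 4.58 (median 4.31) in the WT libraries. Its WT minimum was the value of WT 2, and the other 6 WT libraries were all above the 5 Maf1-/- libraries. The log2 fold change was -0.63 (SE 0.30, unadjusted p = 0.0593, limma), against -0.20 (SE 0.12) for Mbd2. The remodelers Chd3 and Chd4 had log2 fold changes of -0.11 and -0.10, and the p66 genes Gatad2a and Gatad2b of -0.25 and 0.07. The group median was -0.16.

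CTBP1 and CTBP2 are NADH-binding corepressors, and CoREST (RCOR1) ties the demethylase KDM1A, which acts on lysine 4 of histone H3, to HDAC1 and HDAC2. Ctbp1, at chr5:33247723-33274994 (GRCm38, as the deposited table places it, minus strand), had 3.98, 4.51, 3.55, 3.41 and 3.65 in Maf1-/- libraries 1 to 5, against 3.52 to 4.96 (median 4.79) in the WT libraries. The Maf1-/- values were below all WT values but that of WT 2. This gave the smallest unadjusted p of the 53 genes, with a log2 fold change of -0.80 (SE of 0.26, unadjusted p = 0.00943, adjusted p = 0.192 in limma and exact permutation p = 0.0341). Ctbp2, at chr7:132987563-133124354 (minus strand), had 1.31, 1.78, 1.36, 1.63 and 1.11 in Maf1-/- libraries 1 to 5, against 0.99 to 1.66 (median 1.36) in the WT libraries, and the groups lay within the same range, with a log2 fold change of 0.05 (SE 0.14). Rcor1 and Kdm1a had log2 fold changes of -0.06 (SE 0.11) and 0.09 (SE 0.09). The group median was near 0.

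Among the genes of H3K9 methylation, Ehmt2, which encodes the G9a methyltransferase, had 4.94, 5.19, 4.61, 4.24 and 4.58 in Maf1-/- libraries 1 to 5, against 4.17 to 5.67 (median 5.46) in the WT libraries. WT 2 was below all Maf1-/- libraries, and the other WT libraries were above them. The result was a log2 fold change of -0.56 (SE of 0.25, unadjusted p = 0.0421, adjusted p = 0.209 in limma and exact permutation p = 0.0707). Its partner Ehmt1 had a log2 fold change of -0.06 (SE 0.15). Setdb1, a methyltransferase that TRIM28 brings to transposable elements, had 0.24 (SE 0.12, unadjusted p = 0.0544 in limma and exact permutation p = 0.048), and Trim28 had -0.17 (SE 0.15).

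Groucho proteins (TLE) bind repressors such as HES and TCF factors, and AES is a short family member that lacks the WD repeats. Aes was the member with the highest level per kilobase of exon, at 70.5 ± 23.2 in Maf1-/- (SD, n = 5) and 127 ± 38.4 in WT liver (SD, n = 7) CPM per kilobase. On the log2 scale it had 6.83, 7.28, 6.17, 6.28 and 6.53 in Maf1-/- libraries 1 to 5, against 6.04 to 7.80 (median 7.69) in the WT libraries. Except for WT 2, at 6.04, no WT library reached down to the Maf1-/- range. The result was a log2 fold change of -0.82 (SE of 0.30, unadjusted p = 0.0179, adjusted p = 0.192 in limma and exact permutation p = 0.0404). Tle3 had a log2 fold change of -0.57 (SE 0.30, unadjusted p = 0.08, limma), and Tle1 and Tle4 had 0.13 and 0.09.

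Polycomb genes had the highest group medians, 0.15 for PRC1 and 0.16 for PRC2, and none of the 9 had an unadjusted p under 0.05 in limma. In PRC1, the ubiquitin ligase gene Rnf2 and Bmi1, which encodes a PCGF partner of the ligase, both had a log2 fold change of 0.34 (SE 0.16 and 0.18), Pcgf1 had 0.15, and the ligase paralog Ring1 and the chromodomain gene Cbx8 both had -0.36 (SE 0.17 and 0.27). In PRC2, the core subunit genes Suz12 and Eed had 0.25 and 0.17, and the methyltransferase genes Ezh2 and Ezh1 had 0.16 and -0.14. Eed, whose product binds trimethylated lysine 27, averaged 4.35 ± 0.11 in Maf1-/- (SD, n = 5) and 4.18 ± 0.11 in WT liver (SD, n = 7), with an unadjusted p of 0.0757 in limma and 0.024 in the exact permutation test. After a trend on exon GC content and length was removed, Eed had a log2 fold change of 0.11 (unadjusted p = 0.232, limma).

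All 10 other repressors and cofactors had fold changes below 0, with a median of -0.58, and 6 of the 10 were lower at an unadjusted p under 0.05 (60%, against 13.2% of all genes). After a trend on exon GC content and length was removed, 5 of the 10 were below and 5 above 0, with 1 gene, Cic, at an unadjusted p under 0.05. As deposited, Cic had 2.97, 3.84, 2.05, 1.38 and 2.15 in Maf1-/- libraries 1 to 5, against 1.94 to 4.13 (median 3.65) in the WT libraries. Library 2 of Maf1-/- lay at the WT level, and library 4 was the lowest of all 12. The result was a log2 fold change of -1.02 (SE of 0.45, unadjusted p = 0.0406, adjusted p = 0.208 in limma and exact permutation p = 0.0707). Bahd1, which encodes a heterochromatin protein, had 2.48, 2.80, 2.00, 1.60 and 2.22 in Maf1-/- libraries 1 to 5, against 2.06 to 3.29 (median 3.02) in the WT libraries, with a log2 fold change of -0.70 (SE of 0.23, unadjusted p = 0.0109, adjusted p = 0.192 in limma and exact permutation p = 0.024). Daxx, which encodes a chaperone of histone H3.3, had 3.49, 3.47, 3.24, 3.05 and 3.46 in Maf1-/- libraries 1 to 5, against 3.16 to 4.02 (median 3.81) in the WT libraries, with a log2 fold change of -0.41 (SE of 0.15, unadjusted p = 0.0172, adjusted p = 0.192 in limma and exact permutation p = 0.0253). In both genes every Maf1-/- value was below the 6 WT values other than that of WT 2. Nab2, which encodes a corepressor of EGR factors, had 3.53, 3.27, 3.28, 3.40 and 3.61 in Maf1-/- libraries 1 to 5, against 3.27 to 4.67 (median 3.73) in the WT libraries, with a log2 fold change of -0.43 (SE of 0.20, unadjusted p = 0.0486, adjusted p = 0.215 in limma and exact permutation p = 0.0543). Irf2bp1, which encodes a cofactor of IRF2, had 2.50, 2.85, 2.09, 1.92 and 2.30 in Maf1-/- libraries 1 to 5, against 2.11 to 3.16 (median 2.97) in the WT libraries, with a log2 fold change of -0.50 (SE of 0.20, unadjusted p = 0.0259, adjusted p = 0.196 in limma and exact permutation p = 0.0467). Thap7 had 2.10, 2.24, 1.53, 1.60 and 1.91 in Maf1-/- libraries 1 to 5, against 1.13 to 3.37 (median 2.86) in the WT libraries, with a log2 fold change of -0.78 (SE of 0.31, unadjusted p = 0.0279, adjusted p = 0.198 in limma and exact permutation p = 0.0518). The Irf2bp1 groups overlapped also without WT 2, and those of Nab2 and Thap7 did not. Men1, Zbtb7a, Zbtb7b and Zfpm1, which encode menin and 3 zinc finger proteins, had log2 fold changes of -0.30, -0.54, -0.62 and -0.70.

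**Figure D2:**
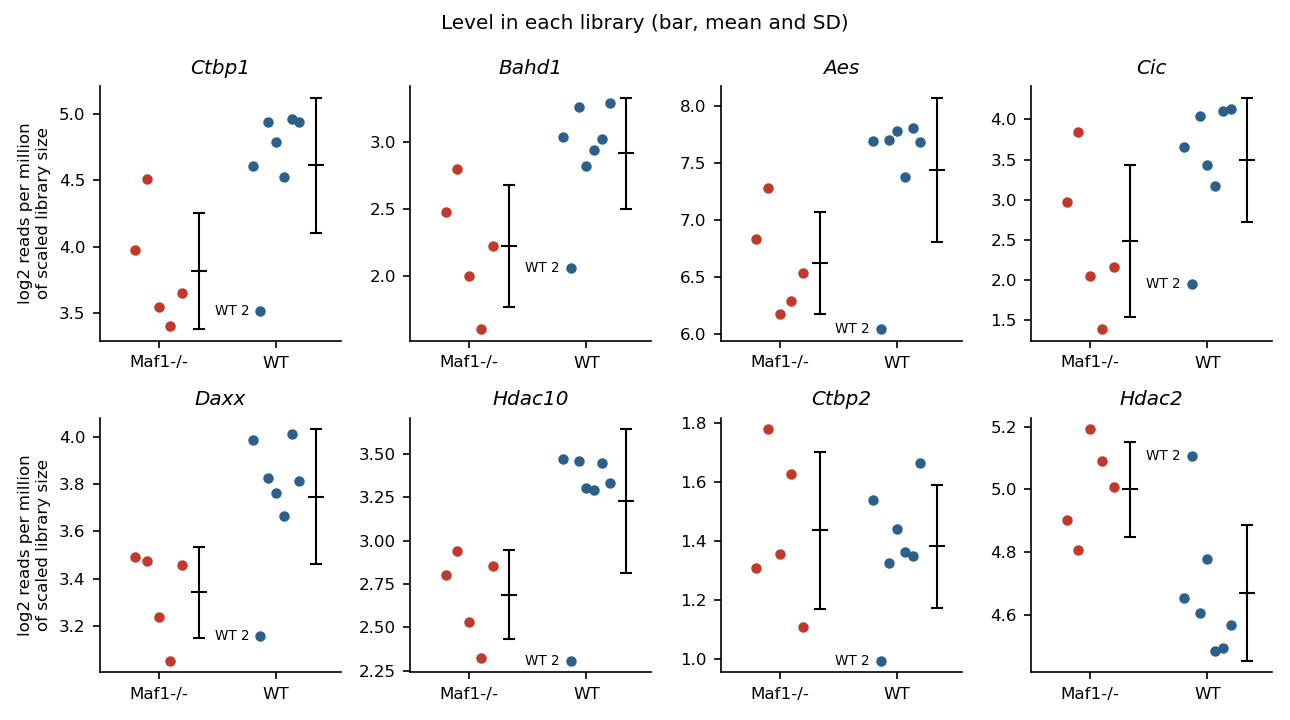
Level of 8 genes in each library, in log2 CPM, Maf1-/- (red, n = 5) left of WT (blue, n = 7), with bars for the mean and SD. WT 2 lies among or below the Maf1-/- libraries in Ctbp1, Bahd1, Aes, Cic, Daxx and Hdac10, and among them in Hdac2.

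With WT 2 left out, 7 members passed the threshold lower (13.2%, against 5.22% of all genes) and 0 passed it higher (against 1.57% of all genes) in limma. The 7 were Hdac10, Mbd3, Ctbp1, Ehmt2, Aes, Daxx and Thap7, with log2 fold changes of -0.70, -0.86, -0.98, -0.74, -1.05, -0.50 and -1.03 and adjusted p of 0.00654 to 0.00929. All 7 have exons with more than 50% GC. With the GC and length correction and WT 2 left out, no member passed, where 0.024% of all genes did. The log2 fold changes of the members ran from -0.49 (Ctbp1) to 0.49 (Hdac11) in that fit, so none could pass at any p. Of the 7, Mbd3, Ehmt2 and Daxx then had log2 fold changes of -0.02, 0.05 and -0.02. Ctbp1, Aes, Thap7 and Hdac10 stayed lower, with -0.49, -0.40, -0.33 and -0.22 and limma adjusted p of 0.046, 0.0386, 0.0547 and 0.0704. Other members were higher in the same fit with like adjusted p. Among them were Irf2bp1, Trim28 and Setdb1, with 0.28, 0.32 and 0.29 (limma adjusted p of 0.0487, 0.0498 and 0.0584). Hdac11 and Mta2 had 0.49 and 0.46 (limma adjusted p of 0.0636 and 0.0655). Without WT 2 and as deposited, the Maf1-/- values lay below all WT values in 13 members (24.5%, against 8.22% of all genes) and above all in Hdac2, Setdb1 and Suz12 (5.66%, against 4.37% of all genes). With all libraries and 1 factor taken from the residuals of the fit, that is from the same values, 12 members passed lower (22.6%, against 6.86% of all genes) and 0 passed higher (against 1.23%). Of these 12, the genes that also passed without WT 2 were Hdac10, Mbd3, Ctbp1, Ehmt2, Aes and Thap7, and the others were Hdac5, Hdac7, Cic, Bahd1, Zbtb7a and Zbtb7b.

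The 2 groups with the lowest median fold changes had the highest median GC content of their exons, while the order of the groups between them and polycomb did not follow it. The median GC content was 60.2% in the other repressors and cofactors and 56.4% in class II and IV HDACs, 51.1% in Groucho and 53.1% in SIN3, and 45.4% in class I HDACs and 45.7% in PRC2. Across the 53 members Spearman's rho between log2 fold change and exon GC content was -0.88, and across the 12482 genes with annotation it was -0.69. These are descriptions across genes of the same 12 libraries, and genes are no independent replicates. Of the 26 members with GC content above 55%, 24 had a fold change below 0, and of the 6 with 45% or less, 5 had one above 0. The 8 members above 60% had a median of -0.66, against -0.64 for all 424 genes of that class, and the 6 members at 45% or less had a median of 0.29, against 0.21 for 3202 genes. Between 55 and 60%, 18 members had a median of -0.38, against -0.41 for 2191 genes. The 10 members at 50 to 55% and the 11 at 45 to 50% had medians of -0.01 and 0.09, against -0.16 and 0.06 for all genes of these classes. The same showed in single libraries. The 36 members above 50% GC deviated from their means by a median of -0.57 to 0.13 in the Maf1-/- libraries and of 0.06 to 0.44 in the WT libraries other than WT 2, where it was -0.49.

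**Figure D3:**
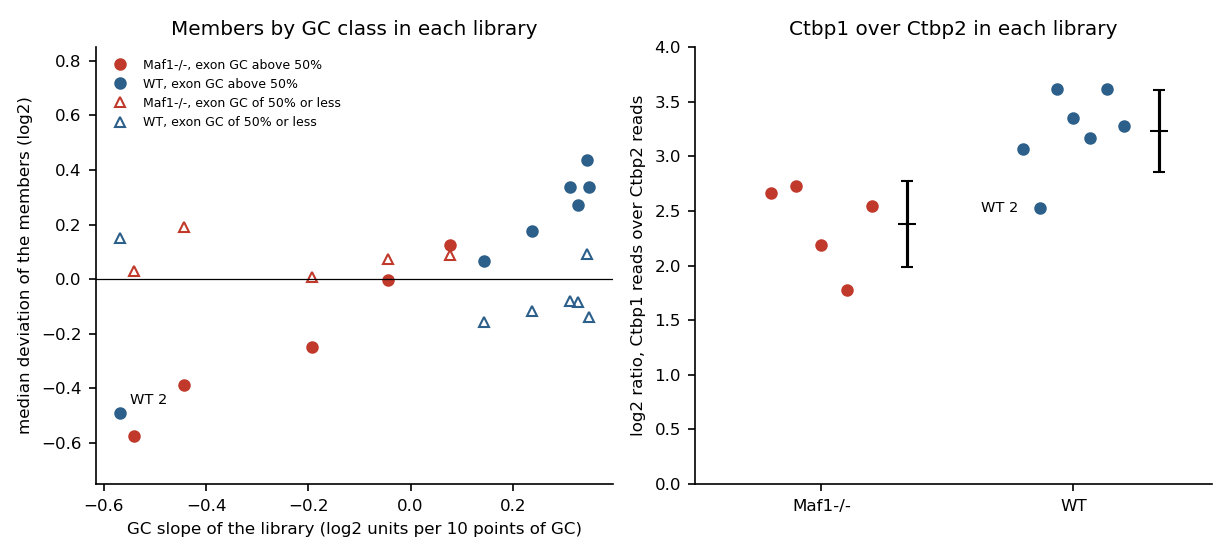
Left, median deviation of the members from their mean over the 12 libraries (log2), for genes above (filled) and at or below 50% exon GC (open), against the GC slope of each library, for Maf1-/- (red) and WT (blue). Right, log2 ratio of Ctbp1 reads to Ctbp2 reads in each library with the mean and SD, where Maf1-/- libraries lie at 1.78 to 2.73 and WT libraries at 2.53 to 3.61, WT 2 being the lowest of these.

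After a trend on GC content and exon length was removed from each library, no member passed the threshold in limma. Nor did any with 1 residual factor added, where 0.761% of all genes passed. No corrected log2 fold change was past 0.5, so no member could pass at any p. With the residual factor the lowest adjusted p in limma was 0.00914, for Ctbp1 (-0.42), and the next was 0.0113, for Mta2 (0.36). The median of the 53 was 0.05, the rho with GC content was -0.16, and all 53 log2 fold changes lay between -0.42 and 0.42. The sign differed from that before correction in 14 members. Among the 12 genes that were lower as deposited these were Irf2bp1 (0.19 after correction), Nab2 (0.06) and Ehmt2 (0.04), and Mbd3 turned to 0.01. Without that factor, 4 members were lower at an unadjusted p under 0.05 (7.55%, against 9.17% of all genes) and 7 were higher (13.2%, against 8.68% of all genes). The 4 lower members were Ctbp1 (-0.42, SE 0.14, limma adjusted p = 0.222), Aes (-0.33, SE 0.12, adjusted p = 0.238), Cic (-0.35, SE 0.13, adjusted p = 0.239) and Hdac10 (-0.18, SE 0.08, adjusted p = 0.27). The 7 higher members were Hdac11 (0.42), Ctbp2 (0.40), Mta2 (0.36), Trim28 (0.27), Pcgf1 (0.25), Chd3 (0.22) and Sin3b (0.17). The lowest adjusted p of any member in this fit without the factor was 0.222. Hdac2, the only higher member before correction, had 0.10 (SE 0.07, limma adjusted p = 0.459). The group medians then lay between -0.11 in Groucho and 0.17 in SIN3, with -0.03 in class II and IV HDACs, -0.01 in the other repressors and cofactors and 0.13 in NuRD.

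**Figure D4:**
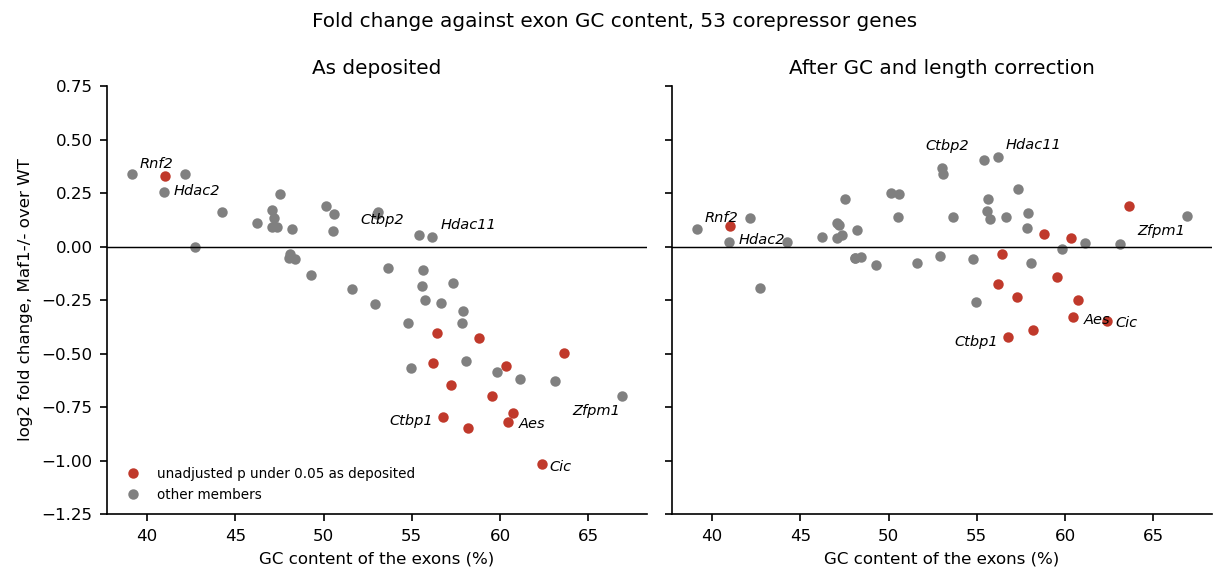
Log2 fold change (Maf1-/- over WT) of the 53 genes against the GC content of their exons in percent, as deposited (left) and after removal of the GC and length trend (right). Red points had an unadjusted p under 0.05 as deposited, and they lie above 55% GC except for Hdac2.

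**Figure D5:**
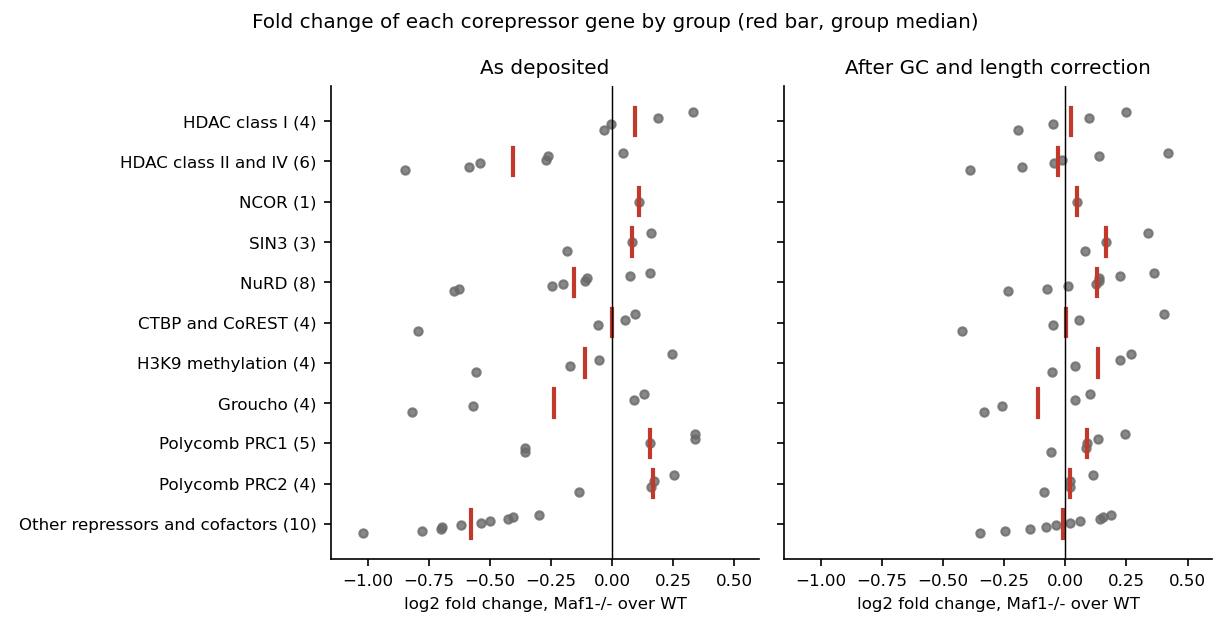
Log2 fold change of each gene (points) by group with the group's size in brackets, and the group median (red bar), as deposited (left) and after removal of the GC and length trend (right). The medians span -0.58 to 0.16 on the left and -0.11 to 0.17 on the right.

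A ratio of 2 paralogs within a library does not depend on how that library was scaled, and 15 pairs were compared by an exact permutation test over the 792 divisions of the libraries, without adjustment. Of these, 4 had p under 0.05. The Ctbp1 to Ctbp2 log2 ratio was 2.38 ± 0.40 in Maf1-/- (SD, n = 5) and 3.23 ± 0.37 in WT liver (SD, n = 7), a difference of -0.85 (exact permutation p = 0.00758). The exons of the pair differ by 1.39 points of GC, and after the correction the difference was -0.83 (exact permutation p = 0.00884). Without WT 2 it was -0.97 (exact permutation p = 0.00216, the smallest that division allows). The reading of Ctbp2 is uncertain, since in the file its span lies under a model of Fgfr2 on the same strand over 135788 bases and under a further model over 3738 bases, and the counter's setting for reads shared by genes is not given in the sources used here. Gatad2b, Chd3, Ehmt1 and Rnf2 also overlap another gene model on the same strand, and 9 members (Hdac7, Ncor1, Kdm1a, Setdb1, Trim28, Rnf2, Eed, Nab2 and Zbtb7b) overlap one on the opposite strand, so their counts carry the same reserve.

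The other 3 pairs were Ehmt2 to Ehmt1 with -0.50 (exact permutation p = 0.0215), Aes to Tle1 with -0.95 (exact permutation p = 0.0391) and Ring1 to Rnf2 with -0.70 (exact permutation p = 0.0417). Their exons differ by 12.3, 13.3 and 18.7 points of GC, and after the correction the differences were 0.10, -0.43 and 0.00, with exact permutation p of 0.614, 0.0985 and 0.982. Hdac5 to Hdac4, a pair with 1.54 points of GC between them, differed by -0.58 (exact permutation p = 0.0606), and by -0.53 after the correction (exact permutation p = 0.0543). Chd3 to Chd4 differed by -0.01 and Zbtb7a to Zbtb7b by 0.08, less than the spread of either group. Without WT 2, 11 of the 15 pairs had p under 0.05. Ehmt2 to Ehmt1 then differed by -0.64 (exact permutation p = 0.00216), the same p as for Ctbp1 to Ctbp2.

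The promoters of Ctbp1 and Ctbp2 are shown because the pair had the smallest p of the 15. They are 250 bases before to 50 after the start in RefSeq (GRCm38.p6), minus strand, 5′ to 3′, with GC boxes (GGGCGG or its reverse complement CCGCCC, both strands searched) in capitals.
Ctbp1, chr5:33274955-33275254: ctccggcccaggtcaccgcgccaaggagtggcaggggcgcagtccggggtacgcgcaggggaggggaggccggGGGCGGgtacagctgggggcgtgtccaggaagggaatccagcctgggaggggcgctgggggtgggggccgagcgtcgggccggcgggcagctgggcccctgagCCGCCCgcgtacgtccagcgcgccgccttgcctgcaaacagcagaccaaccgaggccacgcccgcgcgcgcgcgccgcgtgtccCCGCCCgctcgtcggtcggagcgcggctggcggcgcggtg
Ctbp2, chr7:133015198-133015497: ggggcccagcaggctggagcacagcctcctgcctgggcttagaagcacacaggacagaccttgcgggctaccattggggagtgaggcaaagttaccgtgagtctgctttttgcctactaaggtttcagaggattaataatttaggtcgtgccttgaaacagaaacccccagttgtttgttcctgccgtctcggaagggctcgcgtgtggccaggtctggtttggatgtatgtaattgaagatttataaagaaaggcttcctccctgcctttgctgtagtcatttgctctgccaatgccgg
Ctbp2, chr7:133081811-133082110: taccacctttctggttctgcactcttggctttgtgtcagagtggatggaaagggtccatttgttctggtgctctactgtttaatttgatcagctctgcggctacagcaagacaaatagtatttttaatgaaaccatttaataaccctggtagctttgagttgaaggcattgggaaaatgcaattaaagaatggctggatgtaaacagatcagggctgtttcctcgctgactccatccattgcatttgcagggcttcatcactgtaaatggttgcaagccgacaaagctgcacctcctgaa
The Ctbp1 promoter had 78.7% GC, 43 CpG and 3 GC boxes. Both Ctbp2 promoters had none of these boxes, with 52.0% and 43.7% GC and 8 and 3 CpG, but both lie inside the span that the deposited table gives for Ctbp2, and a promoter at the 5′ end of that span was not analysed here. Of the 46 members in the RefSeq table, 37 (80.4%) held a GC box in the first promoter listed, against 62.8% of the 9726 genes of the expression table that were matched in the same way, and against 35.7% of all 32851 promoters of the same length, which include alternative promoters and genes not measured here, and so did 9 of the 10 listed among the 12 genes that were lower at an unadjusted p under 0.05. Hdac1, Hdac3, Hdac10, Mbd2, Chd3, Aes and Pcgf1 were not matched. A match is a description of these letters and not of a bound factor.

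Of 84 genes that encode further subunits and cofactors of the same complexes, 82 were measured. None passed the threshold in limma, 9 were lower and 11 higher at an unadjusted p under 0.05 (24.4%, against 23.1% of all genes), and the median log2 fold change was -0.07, against -0.02 for all genes. After the GC and length correction 6 of the 82 were lower and 7 higher (against 9.17% and 8.68% of all genes), and the median was 0.04. The smallest p belonged to Phc1, which encodes a PRC1 subunit (-0.52, SE 0.13, unadjusted p = 0.00144, limma), to Hmg20b, a subunit gene of CoREST (-0.68, SE 0.19, unadjusted p = 0.00301), and to Zmym2, which encodes a zinc finger protein found with CoREST (0.59, SE 0.17, unadjusted p = 0.00412). After the correction Phc1 had -0.34, Hmg20b -0.11 and Zmym2 0.33. In the SIN3 list, Sap30l and Sap130 had -0.52 and -0.41, and Arid4a, Ing2 and Arid4b had 0.49, 0.33 and 0.33. After the correction Sap30l turned to 0.21 and Sap130 had -0.13, Arid4b had 0.12, and Arid4a and Ing2 had 0.42 and 0.32, both with an unadjusted p under 0.05. In the NuRD list the smallest p belonged to Cdk2ap2 (-0.86), which had the lowest p of that list also after the correction (-0.47, unadjusted p = 0.00796). In the H3K9 list Mphosph8, Zfp644 and Fam208a, of which Mphosph8 and Fam208a encode subunits of the HUSH complex, had 0.32, 0.46 and 0.31, and 4 of its 13 genes were higher at an unadjusted p under 0.05 (30.8%, against 9.9% of all genes). After the correction 1 of the 13 was (against 8.68% of all genes), Zfp644 with 0.32, while Mphosph8 had 0.09 and Fam208a 0.04. In the PRC1 list 3 of 21 genes were lower and 2 higher at an unadjusted p under 0.05 (against 13.2% and 9.9% of all genes). In the PRC2 list Mtf2 had 0.36 and Phf1 had -0.47, both genes of accessory subunits. After the correction Mtf2 had 0.09 and Phf1 turned to 0.06, neither with an unadjusted p under 0.05. The lists for HDAC, NCOR and Groucho had no gene with an unadjusted p under 0.05 among 8, 4 and 5 measured, against 23.1% of all genes. After the correction the HDAC and NCOR lists still had none. In the Groucho list 1 of 5 genes was then higher (against 8.68% of all genes), Hes6 with 0.61 (unadjusted p = 0.0198, limma). Of 33 coactivator genes, 1 had an unadjusted p under 0.05 (3.03%), Rbbp5 with 0.32, against 23.1% of all genes, and their median was -0.03. After the correction 5 of the 33 were higher at an unadjusted p under 0.05 (Kat5, Kat6a, Wdr5, Rbbp5 and Smarca2), against 8.68% of all genes. None was lower, against 9.17% of all genes, and the median of the 33 was 0.07.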

How the data were processed

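RNA-seq of 12 libraries, 5 from Maf1-/- and 7 from WT liver, was analysed from 1 table of 13304 genes. The authors trimmed reads with cutadapt 1.8, aligned them to GRCm38 with STAR 2.5.2b, counted them per gene with HTSeq 0.6.1 and scaled the libraries by TMM in edgeR 3.14.0. The deposited values are log2 values made by the authors. Their heading reads RPKM. However, turning each value back with a constant of 0.5 and a library size gave whole read numbers for 100% of values (tolerance 0.001), so gene length was not divided out. The strand setting of the count is not given in the sources used here. Levels per kilobase were made here from exon length.

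The genes were fitted in limma 3.58.1 (R 4.3.3), Maf1-/- over WT, without covariates, two-sided, with Benjamini-Hochberg adjustment over the whole table, at an adjusted p of 0.01 and a log2 fold change of 0.5. The RUVSeq factors of the study are of unknown kind and number, so a residual factor was an alternative. Single values and paralog ratios were tested by exact two-sided permutation over 792 divisions, with 0.0013 as the smallest p. GC content and exon length came from the NCBIM37 annotation by gene identifier (93.8% of genes), and a loess trend (span 0.4) on both was removed from each library. Promoters came from RefSeq. Members and lists were chosen with earlier results of these data known. Genes in detail were those with an unadjusted p under 0.05, and Mbd3, Ctbp2, Ncor1 and Eed were added after their values were seen. The fit was tested on simulated data. Reads of a member ranged from 56 to 10560 per library. The fold changes and p-values of the study and the pol III scores were not used.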

Additional observations from a re-analysis of the deposited data

Results flagged for a closer look

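Within a genotype, a library was singled out where its gap to the nearest other library took up most of the range of its group (Dixon's test, which chance meets in about 1 of 20 groups). Of 110 groups looked at, 21 met it (19.1%), and in 18 of these the library was WT 2. The groups share the same libraries and are not independent, and the share over all genes is not given here. The count therefore cannot be read as particular to the members. WT 2 had a GC slope of -0.57 log2 units per 10 points, the other WT libraries 0.14 to 0.35, and the members deviated from their means by a median of -0.36 in it, the other WT libraries by 0.03 to 0.29. By group, the log2 levels in WT 2 and the range of the other 6 WT libraries were as follows. Among HDACs and SIN3, Hdac6 stood at 3.99 in WT 2 with 4.42 to 4.61 in the others, Hdac10 stood at 2.31 in WT 2 with 3.29 to 3.47 in the others and Sin3b stood at 4.33 in WT 2 with 5.01 to 5.11 in the others. In NuRD, Mbd3 stood at 2.65 in WT 2 with 3.93 to 4.58 in the others and Chd3 stood at 5.98 in WT 2 with 6.75 to 6.97 in the others. Among Ctbp1, Ehmt2 and Aes, Ctbp1 stood at 3.52 in WT 2 with 4.53 to 4.96 in the others, Ehmt2 stood at 4.17 in WT 2 with 5.21 to 5.67 in the others and Aes stood at 6.04 in WT 2 with 7.37 to 7.80 in the others. In polycomb genes with WT 2 lowest, Cbx8 stood at 0.70 in WT 2 with 1.81 to 2.24 in the others and Ezh1 stood at 4.12 in WT 2 with 4.38 to 4.53 in the others. Among other repressors, Bahd1 stood at 2.06 in WT 2 with 2.82 to 3.29 in the others, Daxx stood at 3.16 in WT 2 with 3.67 to 4.02 in the others and Zfpm1 stood at 1.91 in WT 2 with 3.45 to 4.42 in the others. Likewise, Irf2bp1 stood at 2.11 in WT 2 with 2.71 to 3.16 in the others and Thap7 stood at 1.13 in WT 2 with 2.50 to 3.37 in the others. Suz12, with 41.0% exon GC, was highest in WT 2, at 5.94 with 5.04 to 5.35 in the others. Among the Maf1-/- libraries, Chd4 was lowest in library 4, at 6.44 with 6.98 to 7.15 in the others, Ezh1 was lowest in library 3, at 4.01 with 4.32 to 4.37 in the others, and Ezh2 was highest in library 2, at 2.62 with 2.19 to 2.26 in the others.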

How the results depend on the processing

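Genes over the whole table past the threshold numbered 2 as deposited, 1076 with 1 residual factor, 2019 with library weights, 1 after the GC and length correction and 95 when a residual factor was added to that correction. Members past the threshold numbered 0 as deposited, 12 with 1 residual factor and 14 with library weights, of which 13 were lower. Members at an unadjusted p under 0.05 numbered 13 as deposited (24.5%, against 23.1% of all genes), 30 with 1 residual factor and 32 with library weights. The share of all genes at that p is not given here for the residual factor, library weights or a library left out. The member counts for these settings, here and below, therefore cannot be read as particular to the members. The median log2 fold change of the members was -0.171 as deposited, 0.047 after the correction, with or without the residual factor, and 0.060 after the correction without WT 2, an alternative chosen after the data were seen, in which 3 genes of the table and 0 members passed. Leaving out 1 library gave 2 to 904 genes of the whole table, 0 to 7 members past the threshold, 4 to 30 members at an unadjusted p under 0.05 and 1 to 11 of 15 paralog ratios with an exact p under 0.05. The upper ends came without WT 2. Without Maf1-/- 2 there were 20 members at an unadjusted p under 0.05, without Maf1-/- 3 or Maf1-/- 4 there were 4, without WT 1, WT 4 or WT 7 there were 8, and without WT 6 there were 7. Paralog ratios numbered 4 as deposited, 1 after the correction and without Maf1-/- 5, and 2 without each of Maf1-/- 3, Maf1-/- 4, WT 3, WT 4, WT 6 and WT 7. After the correction the Ehmt2 to Ehmt1 difference was 0.0974 and that of Ring1 to Rnf2 was 0.0032, both negative before it. The cause of these moves was not tested. With the replicate number as a block, 1 gene of the table passed and 0 members had an unadjusted p under 0.05, and with block and correction together both counts were 0. The deviations of same-numbered libraries correlated at -0.46 to 0.23, WT 6 and WT 7 were left out of these fits, and sign flips over 5 paired differences cannot give an exact p under 0.05 for a paralog ratio. Centring each library on its median moved the median of all genes to 0.07, with -0.02 as deposited, moved the median of the members to -0.071, with -0.171 as deposited, and turned the sign of 4 members. Pseudocount, low-value filter, variance trend and voom weights changed no count by over 1.5 times. Members with few reads, such as those near 56 per library, are the least precise.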
